A study of Mus musculus with 4 samples.

Results

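The genes described here are 9 genes of megakaryocytes and platelets, *Itga2b*, *Itgb3*, *Gp9*, *Gp1bb*, *Gp5*, *Gp6*, *Pf4*, *Ppbp* and *Vwf*, measured in *Ebf1*-/- fetal liver hematopoietic progenitor cells (FL HPCs). They were found as every probe that carries 1 of these gene names, which gave 12 of the 39429 probes on the array and 9 of its 31896 distinct gene names. The genes were chosen by the measured difference of this same contrast, in which *Itga2b* stood out, so their differences are given as descriptions without a test. On the arrays, 7 of the 12 probes, of 6 genes, were bright enough to compare, and the signal of *Itga2b* was lower on both *Mir195* arrays, by a log2 difference of -1.72 on average, while the other 6 probes differed by between -0.38 and 0.33. The *Itga2b* difference includes a spot that the scanner software did not rate well above background. It ran from -2.76 to -0.67 with 1 array left out, and it was -0.80 in the authors' table and -0.063 with another background correction. A probe is called detected where the scanner software rates its spot well above background.

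All cells were lineage-negative (Lin-) cells of *Ebf1*-/- mouse fetal livers at mid-gestation, and they lack EBF1, a transcription factor required for B cell development, under both viruses. They were infected with a GFP retrovirus carrying no insert (EMPTY, 2 arrays) or a segment with *Mir195* cloned from human genomic DNA (*Mir195*, 2 arrays). Both groups were then cultured toward B cells for about a week on OP9 stroma cells with SCF, IL-7 and Flt-ligand at 10 ng/mL each. About 100 ng of RNA per sample was labelled with Cy3. The study does not say that infected cells were sorted, and the sources do not tie a replicate to a litter or a culture, so the spread between replicates may be partly technical.

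Platelets are shed by megakaryocytes, large cells that arise from hematopoietic progenitors in fetal liver and bone marrow under thrombopoietin. Their surface carries the fibrinogen receptor, an integrin made of an alpha chain (*Itga2b*, also known as CD41) and a beta chain (*Itgb3*), and the receptor for von Willebrand factor, the complex of GPIb, GPIX and GPV. *Itga2b* is also used as a marker of the earliest hematopoietic cells of the embryo, so it is not restricted to megakaryocytes. A lineage depletion removes most mature blood cells but not progenitors, and the culture cytokines did not include thrombopoietin.

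The sequences that bear on the comparison are shown first. The mouse miRNA named as the insert is miR-195a-5p, in RefSeq at chr11:70235062-70235082 of GRCm38.p6, plus strand. The seed, bases 2 to 8 counted from the 5′ end, is in capitals, since it is the part through which a miRNA recognises its targets.

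mmu-miR-195a-5p: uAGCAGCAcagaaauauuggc

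The only probe for *Itga2b* and the one detected probe of *Gp1bb* are shown because a single spot per array carries the value of each. Both are 60 bases long, and 55% of the bases of the first and 80% of those of the second are G or C. They have no capitals since no part is singled out.

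*Itga2b* A_52_P459564: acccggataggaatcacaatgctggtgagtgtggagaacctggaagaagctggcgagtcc
*Gp1bb* A_51_P151576: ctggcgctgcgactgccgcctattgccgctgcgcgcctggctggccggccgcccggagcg

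The promoters of *Itga2b*, the member with the largest difference, and of *Pf4*, which was detected on every array, are shown because both genes are textbook targets of GATA1 and ETS factors, whose own probes are described further on. Each runs from 250 bases before to 50 bases after the start of the gene in RefSeq, read on the strand of the gene, at chr11:102469834-102470133 (minus strand) and chr5:90772185-90772484 (plus strand) of GRCm38.p6. Capitals mark short words searched on both strands. The first word searched for GATA factors was AGATAA, another one was AGATAG, a further one was TGATAA, and the last was TGATAG. For ETS factors the search used AGGAAG, and also the related word CGGAAG.

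*Itga2b* promoter: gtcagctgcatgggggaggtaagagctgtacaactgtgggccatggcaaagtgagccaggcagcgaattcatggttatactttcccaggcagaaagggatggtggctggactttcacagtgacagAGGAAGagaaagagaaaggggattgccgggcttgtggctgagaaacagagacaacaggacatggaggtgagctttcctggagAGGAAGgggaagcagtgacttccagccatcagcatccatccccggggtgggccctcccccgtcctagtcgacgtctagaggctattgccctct
*Pf4* promoter: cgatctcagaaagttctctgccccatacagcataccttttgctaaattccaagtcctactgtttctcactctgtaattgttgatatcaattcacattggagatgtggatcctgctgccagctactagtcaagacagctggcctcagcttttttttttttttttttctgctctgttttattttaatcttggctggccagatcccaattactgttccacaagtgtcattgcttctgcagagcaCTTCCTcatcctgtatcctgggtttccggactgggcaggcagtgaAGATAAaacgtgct

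In the *Itga2b* promoter the word AGGAAG lies at -125 and -43 from the start, and no GATA word is in the window. In the *Pf4* promoter a GATA word begins at 37 after the start and an ETS word at -9. RefSeq gave a promoter for 7 of the 9 genes. An ETS word was in 5 of these 7 and in 46.5% of all 32851 promoters, and a GATA word was in 4 of the 7 (*Gp1bb*, *Gp5*, *Gp6* and *Pf4*) and in 29.8% of all promoters. Words this short occur often, and a match is a description of the letters only.

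In the same annotation, both integrin genes lie on chromosome 11, *Itga2b* at 102453297 to 102469883 and *Itgb3* at 104608000 to 104670476. *Gp9* (87776131 to 87779786) and *Vwf* (125552948 to 125686679) lie on chromosome 6, and *Gp1bb* (18620319 to 18622403) and *Gp5* (30307685 to 30310781) on chromosome 16. *Gp6* lies on chromosome 7 (4362853 to 4397851). *Ppbp* (90768518 to 90770063) and *Pf4* (90772435 to 90773383) are neighbours on chromosome 5, with 2371 bases between them. *Gp1bb* is the only one of the 9 that overlaps another annotated gene, *Septin5*.

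The arrays were alike in brightness. The signal at the 75th percentile was 902 to 1127, 23658 to 24671 probes per array were well above background by the scanner software, and no spot was saturated. Replicates correlated with r = 0.996 (EMPTY) and 0.987 (*Mir195*) over the probes compared, and EMPTY replicate 2 correlated with *Mir195* replicate 1 with r = 0.997, above either replicate pair. *Mir195* replicate 2, the array that carries most of the *Itga2b* difference, thus stood apart, and it had 65 outlier spots against 21 to 35 on the others. All 4 arrays lie on the same slide, EMPTY in the first positions and *Mir195* in the last, so position and virus cannot be told apart. Of 12 genes that mark progenitors and pro-B cells, all 11 found on the array by name were detected, *Ptprc*, *Kit*, *Flt3* and *Il7r* among them. *Ebf1* was detected on all arrays with log2 signals between 1.85 and 2.03, and since it is not known whether its probe lies in the disrupted part, this does not check the genotype.

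Values are log2 of the processed signal less the 75th percentile of the array, so that 0 is the brightness of the probe at that percentile. Levels of different probes cannot be set against each other, and only differences of the same probe between arrays are compared. The error of a mean is the SD over 2 arrays. The standard error of a difference comes from the linear model of limma, which moderates it with the spread of all tested probes. It can thus be smaller or larger than the arrays of that probe alone would give. Probes were compared if both arrays of EMPTY or both of *Mir195* rated them well above background and no spot was an outlier, which kept 23731. In limma's test over all of them with Benjamini-Hochberg adjustment, 0% (0 of 23731) passed an adjusted p of 0.05. The lowest adjusted p was 0.101, and 1979 probes had an unadjusted p under 0.05.

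*Itga2b* has 1 probe with 1 spot per array. Its log2 value was -5.39 and -5.15 with EMPTY and -5.95 and -8.03 with *Mir195*. Both *Mir195* values were below both EMPTY values, and the second lay far below the first. The mean was -5.27 ± 0.17 (SD, n = 2) with EMPTY and -6.99 ± 1.47 (SD, n = 2) with *Mir195*. The difference was -1.72, which corresponds to a signal 3.28 times as high with EMPTY. Its moderated standard error was 0.69, while the SD pooled over both viruses, without moderation, was larger at 1.05. Without *Mir195* replicate 1 the difference was -2.76, and without *Mir195* replicate 2 it was -0.67.

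**Figure D1:**
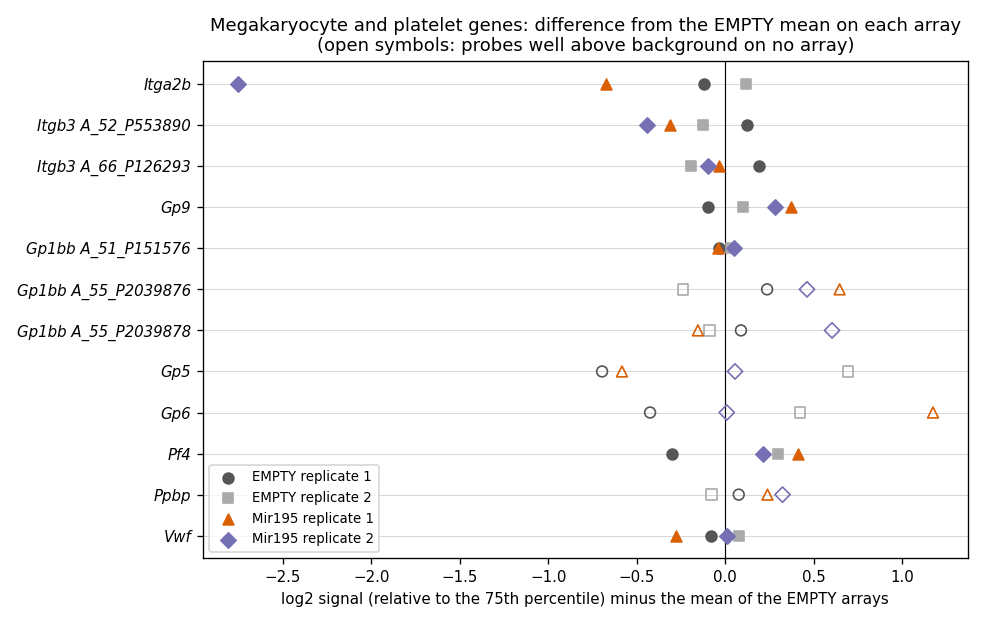
Log2 signal of each of the 12 member probes less its mean over the EMPTY arrays (x axis), with 1 symbol per array and open symbols for the 5 probes not detected on any array. *Itga2b* lies at -0.67 and -2.76 on the *Mir195* arrays, while the other tested probes stay between -0.44 and 0.41.

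The raw spots place this value close to the background. The mean pixel signal of the *Itga2b* spot was 88.3 and 90.2 with EMPTY and 74.2 and 58.5 with *Mir195*, above a background of 61.4, 61.2, 59.4 and 55.1 that the software subtracted on the same arrays in the same order. After its further correction for trends over the array, the processed signal was 26.8 ± 4.29 and 28.9 ± 3.98 with EMPTY and 14.6 ± 3.22 and 3.52 ± 3.31 with *Mir195*, where the error is the scanner's own for that spot. The last signal is about as large as its error. The software rated the spot well above background with EMPTY on both arrays and with *Mir195* on 1 of 2, and on *Mir195* replicate 2 it did not. The fold therefore mixes a detected and an undetected spot. Within 10 rows and columns of the *Itga2b* spot, 203 probes were detected on all 4 arrays. Their median difference from their own EMPTY mean was 0.03 and 0.00 on the *Mir195* arrays. Probes not detected on all 4 arrays were left out, so this median cannot show whether dim spots nearby were lower.

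**Figure D2:**
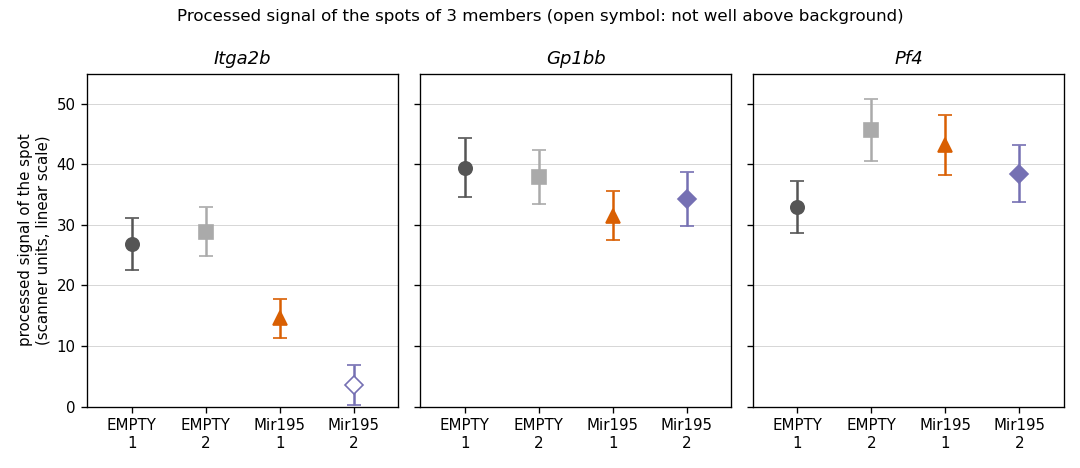
Processed signal (linear scanner units, y axis from 0) of the single spot of *Itga2b*, *Gp1bb* (probe A_51_P151576) and *Pf4* on each of the 4 arrays, with the scanner's error for the spot as bars and an open symbol where the spot was not well above background. *Itga2b* is at 26.8 and 28.9 with EMPTY and at 14.6 and 3.52 with *Mir195*, while *Gp1bb* and *Pf4* stay between 31.5 and 45.6 on all arrays.

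Among all probes compared, 0.383% had a log2 difference at or under that of *Itga2b*, a place that the choice of the gene set and that rests partly on an undetected spot, so nothing is read from it. Beside it stand the 1317 tested probes whose EMPTY mean was within 0.25 of that of *Itga2b*. The *Mir195* arrays differed by 2.08 for *Itga2b* and by a median of 0.33 for these equally dim probes. The EMPTY arrays differed by 0.24 for *Itga2b* and 0.26 for the others. Of the same 1317 probes, 165 were not detected on 1 *Mir195* array and 44 on both. A probe not detected on 1 or both *Mir195* arrays was compared only if both EMPTY arrays detected it. These counts are thus partly set by the filter.

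The authors' own table of normalized log2 values gave a smaller difference. It lists *Itga2b* at -5.35 and -5.21 with EMPTY and at -5.95 and -6.21 with *Mir195*, a difference of -0.80. The direction and the lack of overlap were the same as in the scanner files, but *Mir195* replicate 2 was 0.26 below replicate 1 in place of 2.08. The headers of the scanner files and the processing notes name different versions of the extraction software. Whether the table was made from another extraction was not tested. With a background correction that models background and signal together (normexp with an offset of 50), which compresses dim signals, the difference was -0.06.

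*Itgb3*, the beta chain that pairs with *Itga2b* and, with another alpha chain, also forms the vitronectin receptor of other cells, has 2 probes. The probe A_52_P553890 was bright, with log2 values of 3.39 and 3.14 with EMPTY and 2.96 and 2.82 with *Mir195*. The difference was -0.38 (standard error 0.15), again with both *Mir195* arrays below both EMPTY arrays. The probe A_66_P126293 had -2.47 and -2.85 with EMPTY and -2.69 and -2.76 with *Mir195*, a difference of -0.06 (standard error 0.17), and its groups overlapped. The probes of *Itgb3* thus had the same sign and unequal size, and the table gave -0.39 and -0.02 for them. Both probes are assigned to the same transcript by the array.

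In the receptor complex for von Willebrand factor, *Gp9* encodes the GPIX subunit, *Gp1bb* the beta chain of GPIb and *Gp5* the GPV subunit. *Gp9* had log2 values of -2.04 and -1.85 with EMPTY and -1.57 and -1.66 with *Mir195*. Its groups did not overlap, with *Mir195* higher by 0.33 (standard error 0.13), which is opposite in sign to *Itga2b*. The table gave 0.32. *Gp1bb* probe A_51_P151576 had -4.84 and -4.76 with EMPTY and -4.84 and -4.75 with *Mir195*, a difference of 0.01 (standard error 0.12), and all 4 arrays detected it.

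The other probes of *Gp1bb* and the probe of *Gp5* were well above background on no array, so no fold is given for them. The processed signal of *Gp1bb* probe A_55_P2039876, which the array assigns to the same transcript variant as the detected probe, was 3.46 to 5.60 over the 4 arrays. That of A_55_P2039878, assigned to the other variant, was 3.35 to 5.79. The spots of *Gp5* gave 3.41 to 9.44, with a scanner error of 3.35 to 3.93. The detection of *Gp1bb* thus rests on 1 of its 3 probes, the one rich in G and C.

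*Gp6*, the collagen receptor of platelets, was not detected either, with processed signals of 3.52 to 8.55 on the 4 arrays.

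Of the genes for proteins of the alpha granule, *Pf4* (platelet factor 4) and *Ppbp* (pro-platelet basic protein) are chemokines that platelets release, and *Vwf* is the adhesive ligand of the GPIb complex, also made by endothelial cells. *Pf4* had log2 values of -5.10 and -4.50 with EMPTY and -4.39 and -4.58 with *Mir195*, a difference of 0.31 (standard error 0.23). Its groups overlapped in the scanner files, since EMPTY replicate 2 lay between the *Mir195* arrays, and did not overlap in the table, where the difference was 0.25. *Ppbp* was well above background on no array, and its mean pixel signal of 48.9 to 58.9 was below the background used on each of the 4 arrays. The neighbouring genes *Pf4* and *Ppbp* therefore differed in detection. *Vwf* had -2.47 and -2.31 with EMPTY and -2.67 and -2.38 with *Mir195*, a difference of -0.13 (standard error 0.15), with overlap.

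Of the 7 tested member probes, 2 had both *Mir195* arrays below both EMPTY arrays (*Itga2b* and *Itgb3* A_52_P553890), against 14.4% of all tested probes. The same held upward for 1 probe (*Gp9*), against 23.4% of all, and the other 4 overlapped. In the authors' table, 2 were lower (15.8% of all) and 2 higher (21.5% of all), the second being *Pf4*, and 3 overlapped. The median log2 difference over the 7 probes was -0.06, beside 0.01 over all 23731. These shares are given as a description, since the members were chosen on this contrast, and the members that did not overlap lay in opposite directions.

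**Figure D3:**
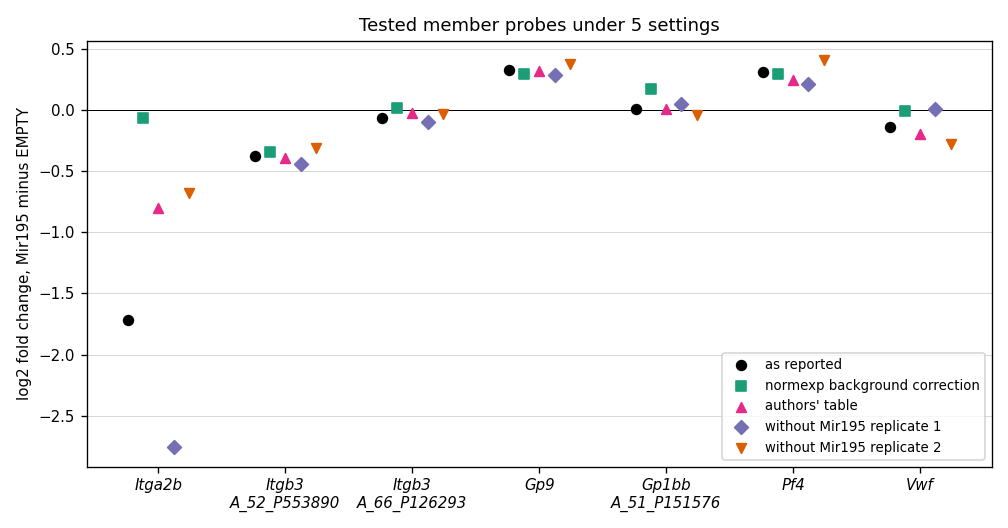
Log2 fold change (*Mir195* minus EMPTY, y axis) of the 7 tested member probes as reported and under 4 other settings, namely the normexp background correction, the authors' table, and each *Mir195* array left out. The values of *Itga2b* run from -2.76 to -0.06, while those of *Itgb3* A_52_P553890 and *Gp9* keep their sign in all 5. The groups of these 3 probes do not overlap, so leaving out 1 array could not change their sign.

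*Itga2b* was then set beside the genes of other lineages that the results text names for the arrays, each as its difference from its own EMPTY mean on each array. Of these genes 16 were tested with 19 probes. On *Mir195* replicate 1, *Itga2b* was at -0.67, and 1 of the 19 probes, that of *Il2rb* (a receptor chain of T and NK cells), was lower at -0.70. On *Mir195* replicate 2, *Itga2b* was at -2.76 and none of the 19 was lower, the nearest being *Cebpe*, a factor of granulocytes, at -0.75. In the authors' table, *Itga2b* was at -0.68 and -0.93, and on each array 1 lineage probe was lower, *Il2rb* at -0.76 and *Cebpe* at -0.95. The place of *Itga2b* far beyond the lineage genes thus came from 1 array and from the scanner files.

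The lineage genes themselves were less spread. *Cd79b*, a signalling chain of the B cell receptor, had the highest values of the 19, at 0.81 and 1.56 on the *Mir195* arrays. The median of the B lineage probes (*Pax5*, *Rag1*, *Rag2*, *Cd79b*, *Runx2* and *Erg*) was 0.35 and 0.68, that of the T and NK probes (*Gata3*, *Id2*, *Lck*, *Cd3e* and *Il2rb*) -0.33 and -0.27, and that of the myeloid probes (*Cebpe*, *Ly6g*, *Fcgr1*, *Fcgr2b* and *Fcgr3*) -0.25 and -0.46. *Itga2b* was thus on the side of the T and NK median and the myeloid median on both arrays. Single probes differed, since *Lck*, *Cd3e* and *Cebpe* lay above their EMPTY mean on *Mir195* replicate 1. The results text names the lineage genes for their direction on these same arrays, and *Itga2b* was chosen on this contrast. The sides were thus largely set by the choice, and nothing is read from them. Levels were not compared, since each probe is set against itself, and none of the 19 passed the adjusted threshold with all 4 arrays, while *Cd79b* passed without *Mir195* replicate 1 (1.56, adjusted p = 0.012 from limma).

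**Figure D4:**
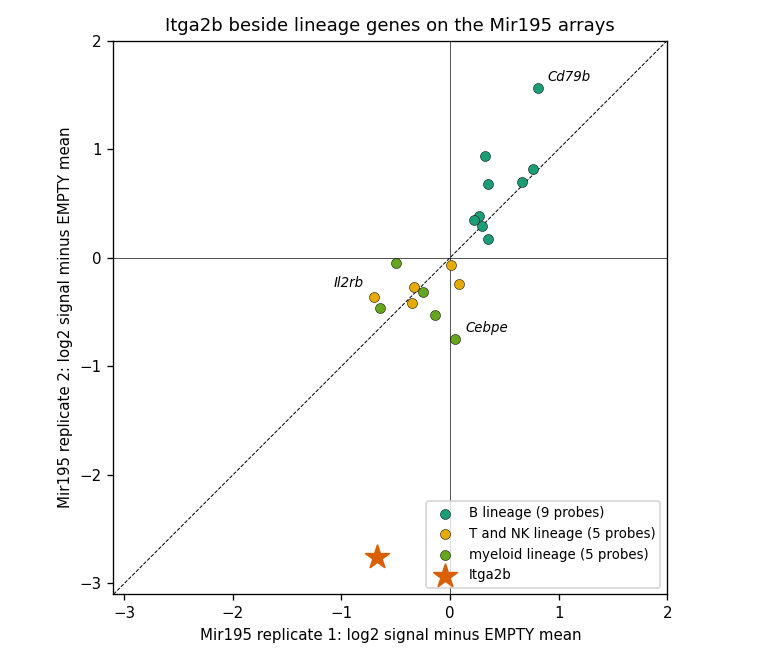
Difference from the EMPTY mean on *Mir195* replicate 1 (x axis) and replicate 2 (y axis), in log2 units, for *Itga2b* (star) and 19 probes of B, T and NK, and myeloid genes, with a dashed line of equality. The lineage probes lie between -0.75 and 1.56 on both axes, some of them off the line (*Cd79b* at 0.81 and 1.56, *Cebpe* at 0.05 and -0.75), and *Itga2b* lies at -0.67 and -2.76, farther below it.

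The probes whose pattern over the 4 arrays was nearest to that of *Itga2b* were sought among 23367 probes well above background on both EMPTY arrays, by the Euclidean distance of their values centred on their own mean. The nearest were *Gm4616* (distance 0.19), *Gm3094* (0.23), *Ppp1r1c* (0.28), *Igf2os* (0.36) and *Ocm* (0.38). Their differences between the viruses were -1.38 to -1.75. In 4 of these 5 the probe was well above background on neither *Mir195* array, and *Igf2os* was on both. None of them is one of the 9 genes or of the wider lists below, and 4 arrays give little to tell patterns apart.

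A wider list of 76 other genes of megakaryocytes and platelets was examined by role, each gene by its tested probe of highest mean signal. All 76 are on the array, 62 were tested and 10 were detected on no array. The other 4 were detected on some array but left out, for too few detections or for an outlier spot. None of the 62 passed the adjusted threshold in either direction, the lowest adjusted p from limma was 0.53, and 4 had an unadjusted p under 0.05. The means were higher with *Mir195* for 31 and lower for 31, and their median difference was -0.0018, beside 0.01 over all probes. The arrays of the viruses did not overlap for 9 of the 62 genes upward, against 23.4% of all tested probes, and for 17 of the 62 downward, against 14.4% of all. The balance of the list was thus the reverse of that over the array, without a test. The list takes the brightest tested probe of each gene, while the shares are over all tested probes, dim ones included. Lack of overlap also includes small differences, such as -0.06 for *Rap1b* downward and 0.04 for *Vipas39* upward.

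Of 19 surface receptors, 13 were tested, and *Gp1ba*, which encodes the alpha chain of GPIb that binds von Willebrand factor, was among the 4 detected on no array. The highest difference was that of *Treml1*, a receptor stored in platelet granules, at -6.59 and -5.98 with EMPTY and -5.47 and -4.82 with *Mir195*. It amounted to 1.14 (adjusted p = 0.53 from limma), with no overlap and detection on 3 arrays. The lowest was that of *Cd226*, an adhesion receptor also found on T and NK cells, at -0.76 (adjusted p = 0.644 from limma). *Clec1b*, a platelet receptor for podoplanin, has 2 tested probes that disagreed, the brighter at -0.0040 and the other at -1.02, which is lower than *Cd226* and was named after its value was seen. The genes with the highest and the lowest difference are thus both dim, and the median of the receptors was 0.05.

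Of 15 transcription factors, 13 were tested and *Gata2* was detected on no array. *Gata1*, the principal GATA factor of megakaryocytes and red cells, had -3.43 and -2.70 with EMPTY and -2.71 and -2.66 with *Mir195*, a difference of 0.38 (adjusted p = 0.821 from limma). *Fli1*, an ETS factor that acts on megakaryocyte genes, had 2.51 and 2.59 with EMPTY and 2.57 and 2.61 with *Mir195*, a difference of 0.04. *Nfe2*, needed for platelet release, and *Gfi1b*, a repressor needed for the maturation of megakaryocytes, differed by 0.23 and -0.13. All of these factors overlapped between the viruses. The differences ran from -0.30 for *Zfpm1*, the cofactor of GATA1 known as FOG, to 0.45 for *Tal1*, a factor of early hematopoiesis, with a median of 0.04.

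Of 14 genes for granule proteins, 12 were tested. They lay between -0.17 for *Clu* (clusterin) and 0.19 for *Pdgfb* (a chain of platelet-derived growth factor), with a median of 0.02. Of 11 cytoskeletal genes, 10 were tested, and the platelet-specific beta-tubulin *Tubb1* was detected on no array. These lay between -0.29 for *Arhgap6*, a GTPase-activating protein, and 0.27 for *Myl9*, a myosin light chain, with a median of -0.09. Of the 10, 8 were lower on average, and 5 of the 10 were lower without overlap, against 14.4% of all tested probes. None of these differences passed the test.

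Of 17 signalling enzymes, 14 were tested, with differences between -0.72 for *Gucy1a3*, a subunit of the nitric oxide receptor guanylate cyclase, and 0.15 for the kinase *Fyn*, and a median of -0.06. *Gucy1a3* had -2.56 and -3.00 with EMPTY and -3.73 and -3.27 with *Mir195* (adjusted p = 0.554 from limma). Its arrays did not overlap. Of the 14 enzymes, 10 were lower on average, 7 of the 14 were lower without overlap, against 14.4% of all tested probes, and 1 was higher without overlap. The platelet lipoxygenase gene *Alox12* was detected on no array.

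**Figure D5:**
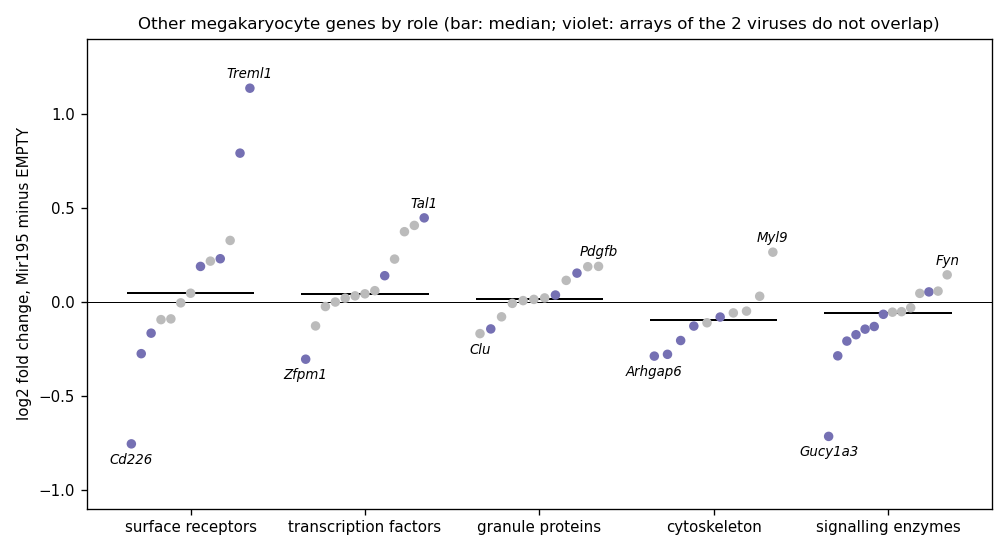
Log2 fold change (*Mir195* minus EMPTY, y axis) of the 62 tested genes of the wider list, by role (x axis), sorted within a role, with a bar at the median of each role and violet points where the arrays of the viruses do not overlap. The medians lie between -0.09 and 0.05, and *Treml1* at 1.14 and *Cd226* at -0.76 are the extremes.

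Markers of other cells that the cultures could hold were measured beside these genes. In bulk RNA, fewer cells of a type and less RNA per cell cannot be told apart. Of the 10 erythroid genes, 4 were detected on no array, *Klf1*, *Ahsp* and *Alas2* among them, and *Hbb-b1* and *Hbb-bt* shared 1 probe. All 5 tested erythroid probes were lower on average with *Mir195*, with a median of -0.27. The sum of their signals, each relative to the 75th percentile, was 9.27 and 10.1 with EMPTY and 9.97 and 8.35 with *Mir195*. Bright probes weigh most in such a sum, here that of *Tfrc*, which differed by -0.03. *Epor*, the erythropoietin receptor, had -3.35, -3.25 and -3.26 on the first 3 arrays and -7.93 on *Mir195* replicate 2, the array on which *Itga2b* was also not detected. Its part in the values of *Itga2b* was not tested.

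Of 9 mast cell and basophil genes, 3 were tested and 2 of them were lower on average, and the summed signal was 1.19 and 1.35 with EMPTY and 1.26 and 1.05 with *Mir195*. All 9 macrophage genes were tested and 7 were higher on average, with a median of 0.39. Their sum was 5.98 and 5.72 with EMPTY and 5.95 and 6.03 with *Mir195*. *C1qa*, a complement chain of macrophages, differed by 1.43 (adjusted p = 0.53 from limma) and was detected on 2 arrays. Of 8 endothelial genes, *Tek*, *Emcn* and *Tie1* were detected on no array. The other 5 were tested, 3 of them higher and 2 lower on average. The sum over these 5 was 13.01 and 16.27 with EMPTY and 18.24 and 17.53 with *Mir195*. It mainly follows its brightest probe, that of *Egfl7*, at 3.22 and 3.67 with EMPTY and 3.86 and 3.83 with *Mir195*. Endothelial cells also make *Vwf*, and its relation to these markers was not tested. Of 10 genes of OP9 stroma, 9 were tested and 8 were higher on average. The sum was 23.8 and 24.0 with EMPTY and 19.6 and 28.4 with *Mir195*, on either side of the EMPTY arrays. The brightest probe with EMPTY, that of *Thy1*, was the 1 lower on average (-0.59), and it pulls the sum against the others. For each of the other 8, *Mir195* replicate 1 lay below both EMPTY arrays and replicate 2 farther above them. *Sparc*, the brightest of these 8, had 2.51 and 2.63 with EMPTY and 2.47 and 3.41 with *Mir195*. *Mir195* replicate 2, which had the lowest *Itga2b* signal, had the highest stroma sum, and the part of the stroma share in the member values was not tested.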

How the data were processed

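RNA of 2 EMPTY and 2 *Mir195* samples was hybridised to 4 single-dye Agilent mouse arrays, grouped by their titles. The authors deposited for each spot the processed intensity of Agilent Feature Extraction (11.5.1.1 in the submitters' processing notes), background-subtracted and detrended, with a small surrogate value for spots at background. A deposited table with the authors' log2 values, scaled by the 75th percentile of each array, correlated with the scanner values with r = 0.998 on each array. From the intensity, log2 values less the 75th percentile of the array were computed over 39429 probes, leaving out the 21 to 65 outlier spots per array. Both arrays of EMPTY or of *Mir195* had to be well above background, which 23801 probes were, and the 23731 of them without an outlier spot entered the linear model of limma 3.58.1 (R 4.3.3, moderated by eBayes, two-sided, Benjamini-Hochberg over all probes, adjusted p of 0.05). The procedure was tested on simulated data. Tables were handled in Python 3.11.15 with pandas 2.3.3 and numpy 2.4.6, and figures drawn with matplotlib 3.10.9.

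Symbols were taken by accession from RefSeq GRCm38.p6 for 26055 probes and otherwise from the array, and all 9 genes matched. Promoters and the miRNA come from RefSeq (GRCm38.p6), and probe sequences from the scanner files. The named genes are the 9 members, the highest and the lowest gene of each role with *Gata1*, *Fli1*, *Nfe2*, *Gfi1b* and *Gp1ba*, the lineage genes of the results text and the 5 probes nearest to *Itga2b*. Other genes named were chosen after their values were seen. Some genes that the rule names are not reported here. The members and the lists were chosen with earlier results of these data known. The alternatives were normexp (offset 50), other scalings, the authors' table, looser and stricter filters on dim probes, a robust eBayes with a mean trend, a block for replicate number, leaving out single arrays, and the methods' t-test. The number of arrays limits the precision.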

Additional observations from a re-analysis of the deposited data

How the results depend on the processing

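With 2 arrays per virus and *Itga2b* near the background, its size depended on the processing while its sign did not change in the 12 alternatives that gave a value. Among these, the looser filter, the robust eBayes and the replicate block leave the group means as they are, so their sign was fixed in advance. Leaving out 1 array could not change the sign either, since both *Mir195* values lay below both EMPTY values. The difference moved from -1.72 to -0.063 with normexp, and the cause was not tested. Leaving out 1 array gave -2.76 to -0.67. Under the filter that asks for detection on all 4 arrays *Itga2b* was not compared. The median over the member probes moved from -0.06 to 0.020 with normexp and to -0.16 with scaling by the median, and with 1 array left out it was -0.06 to 0.01. The median of all probes also moved with normexp, from 0.01 to 0.072. The median of the wider genes was -0.10 with scaling by the median, which shifts the median of all probes to -0.08, and -0.052 to 0.041 with 1 array left out. The probes past the threshold numbered 0 as reported, 3 with scaling by the median and 0 to 904 with 1 array left out, 904 of them without *Mir195* replicate 1 and 3 without *Mir195* replicate 2. In those fits the lone array is assumed to vary like the other virus. Of the wider genes 0 to 1 passed, which was *Treml1* (1.46, adjusted p = 0.039 from limma) without *Mir195* replicate 1. *Cd79b* (1.56), *C1qa* (1.54), *Cxcl12* (0.91), *Fn1* (0.85) and *Epor* (-4.63) of the other lists passed in the same fit. With the replicate number as a block (replicate block), 5 probes passed, 0 of the wider genes did, and *Itga2b* stayed at -1.72. The deviations of same-numbered arrays correlated with r = -0.10. This compares a single replicate difference per virus, so it cannot decide whether the numbers pair the arrays. The crossed pairing, added after seeing the data, gave 0 probes past the threshold. The methods' t-test gave 1134 probes at an unadjusted p of 0.05 and 0 after adjustment. Of the other member probes, *Itgb3* A_52_P553890, *Gp9* and *Pf4* kept their sign in all 13 alternatives, within -0.50 to -0.25, 0.23 to 0.43 and 0.012 (without EMPTY replicate 1) to 0.61 (without EMPTY replicate 2), and *Itgb3* A_66_P126293, *Gp1bb* and *Vwf* changed it in 2, 4 and 1. For these probes both filters, the robust eBayes and the replicate block only repeat the reported value. For *Itgb3* A_52_P553890 and *Gp9*, whose groups did not overlap, leaving out 1 array could not change the sign.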
